A study of Homo sapiens with 8 samples.

Results

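The genes of the ephrin receptors EPHA1 to EPHA7 were examined for binding of the transcription factor GATA2 in VCaP, a castrate-resistant line of human prostate cancer cells, with and without the bromodomain inhibitor JQ1. The 7 genes were grouped by family and selected on earlier peak results of the same files, so their peak counts are descriptions and no test is given on them. A peak belonged to a gene when its summit, the base with most signal, lay within 50 kb of the gene's RefSeq span on GRCh38. Overlapping peaks of the 4 peak lists were merged into regions, which gave 57 EPHA regions of 36122 regions in the whole genome. All cells were without steroids for 72 h. The untreated group received vehicle (DMSO) and the JQ1 group received 1 µM JQ1 for the last 24 h. Each group had 2 GATA2 precipitates with a peak list each, sequenced as 75-base single-end reads, and 2 input chromatin samples with no list used here. The labels do not say that replicates came from separate cultures, and with 2 lists against 2 an exact permutation test could not give a p below 0.333. RNA was not measured in these files, so neither the identity of the cells nor the expression of the EPHA genes could be checked by markers.

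Eph receptors are receptor tyrosine kinases of the cell surface that bind ephrins carried by neighbouring cells. The A class binds mainly the ephrin-A proteins, which are anchored to the membrane by a lipid, and contact sends a forward signal into the cell with the receptor and a reverse signal into the cell with the ephrin. They are best known from axon guidance and tissue boundaries, and EPHA2 is often studied in epithelial tumours. GATA2 is a zinc-finger factor that binds the letters GATA followed by A or G, mostly at enhancers, and works beside the androgen receptor in prostate cells. JQ1 displaces BET proteins from acetylated histones.

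The promoters of the 7 genes were read first, because peaks at a start site would be the plainest form of binding at a gene. RefSeq (GRCh38.p14) gave 12 start sites for the 7 genes, and the 250 bases before each were searched for GATAA and GATAG and, to cover both strands, for the reverse complements TTATC and CTATC. At least 1 of these was found in 3 of the 12 promoters, beside 31.9% of 35116 promoters of all genes. The outermost starts that held one were those of EPHA3 and EPHA5, and both are shown 5′ to 3′ on the strand of the gene, with the match in capitals.
EPHA3, chr3:89107371-89107620, plus strand: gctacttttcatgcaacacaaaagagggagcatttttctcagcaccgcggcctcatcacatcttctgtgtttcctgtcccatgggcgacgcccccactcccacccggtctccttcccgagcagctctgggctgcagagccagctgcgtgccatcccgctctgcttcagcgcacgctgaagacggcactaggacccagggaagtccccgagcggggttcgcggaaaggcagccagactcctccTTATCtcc
EPHA5, chr4:65670490-65670739, minus strand: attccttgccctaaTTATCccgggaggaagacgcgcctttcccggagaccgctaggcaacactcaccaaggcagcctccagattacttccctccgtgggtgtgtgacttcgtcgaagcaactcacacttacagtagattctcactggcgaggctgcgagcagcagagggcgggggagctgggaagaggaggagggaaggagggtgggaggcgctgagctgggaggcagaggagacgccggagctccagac
The match began 8 bases before the start of EPHA3 and 236 bases before the start of EPHA5, each time as TTATC. The other promoter with a match was that of an inner start of EPHA7, where the first match began 60 bases before the start. A match is a description of these letters only. No GATA2 summit of any list lay in any of the 12 promoters. The share of all promoters with a summit was not counted, so this absence is not read as particular to the EPHA genes. The nearest summit to a start was 2.26 kb away at EPHA6, 6.50 kb at EPHA4, 11.7 kb at EPHA1, 26.1 kb at EPHA3, 73.0 kb at EPHA7 and 78.4 kb at EPHA5. At EPHA2, a receptor studied as a tumour cell marker, the nearest summit was 109 kb from the start and the gene had no region.

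The lists differed far more between replicates than between treatments, which sets what presence in a list can show. On the main chromosomes there were 6902 and 27373 peaks in untreated replicates 1 and 2, and 4974 and 32404 in JQ1 replicates 1 and 2. The reads over each summit and over its local background could be recovered from the authors' fold enrichment and −log10 p for 100% of lines in every list. The genome-wide coverage, taken as the lowest background in a list, was 1.25, 1.96, 1.13 and 1.56 reads in the same order. A level below means the reads over a summit divided by this genome-wide coverage. Treatments were compared within a replicate, as the log2 ratio of the JQ1 level to the untreated level, after subtraction of the median over all regions shared by that replicate's lists. That median was −0.22 over 3271 regions in replicate 1 and −0.20 over 21173 in replicate 2, and all ratios below are relative to it. The same ratio was taken with the reads divided by the local background, and it is given where its sign differs.

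GATA2 regions lay at 6 of the 7 EPHA genes, beside 62.6% of all protein-coding genes and 94.4% of the genes of at least 150 kb, a length that 5 of the 7 reach. EPHA6, the longest at 947 kb, had 27 regions, EPHA4 and EPHA5 had 9 each, EPHA7 had 6, EPHA3 had 5 and EPHA1 had 1. Within their windows the EPHA genes had 20.7 regions per Mb, beside 12.3 per Mb in the genome and 13.8 per Mb at the median gene of at least 150 kb. EPHA4 was the densest with 35.1 regions per Mb, above 95.4% of these long genes. EPHA6 had more regions than 98.8% of the long genes but, at 25.8 per Mb, a density above 84.8% of them. EPHA7 had 21.5 regions per Mb, EPHA5 had 19.96, EPHA3 had 10.54 and EPHA1 had 8.49. Of the 57 regions, 44 had their leading summit inside a gene span, 8 upstream of one and 5 downstream. Exons were not given in the annotation used, so exonic and intronic summits are not told apart here.

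**Figure D1:**
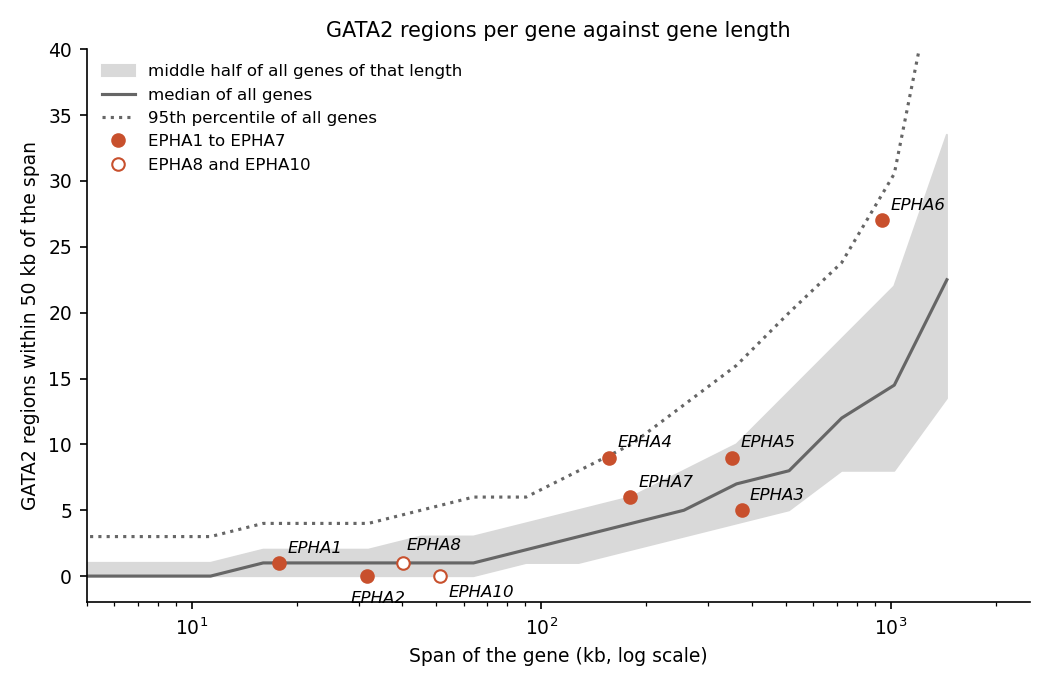
Number of GATA2 regions within 50 kb (vertical axis) against the length of the gene span in kb (horizontal log axis), for the EPHA1 to EPHA7 genes (filled) and for EPHA8 and EPHA10 (open). The line, band and dotted line give the median, the middle part and a high percentile of all protein-coding genes of like length, as named in the legend. EPHA6 lies highest with 27 regions, EPHA4 with 9 lies at the dotted line, and EPHA2 lies at 0.

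Most EPHA regions were found in the longer lists of replicate 2. Of the 57 regions, 12 were present in untreated replicate 1 (21.1%, beside 18.6% of all regions), 41 in untreated replicate 2 (71.9%, beside 72.6%), 12 in JQ1 replicate 1 (21.1%, beside 13.4%) and 54 in JQ1 replicate 2 (94.7%, beside 85.2%). Only JQ1 replicate 2 held 15 of them (26.3%, beside 25.9%), and only untreated replicate 2 held 2 (3.51%, beside 13.3%). Another 23 were in both replicate 2 lists and in neither replicate 1 list. The share of all regions in that class was not counted, so the 23 are not read as particular to the EPHA genes. All 4 lists held 7 regions (12.3%, beside 8.96%), of which 3 were at EPHA6, 2 at EPHA5, 1 at EPHA4 and 1 at EPHA7. So 4 of the 7 genes had a region of all 4 lists, beside 13.6% of all genes and 37.2% of those of at least 150 kb. EPHA5 and EPHA6 had 2 or more, beside 2.94% of all genes and 14.1% of the long ones. These shares rise with length. A region of all 4 lists was found at 32.4% of genes of 150 to 400 kb. Among the 483 genes of 400 to 3000 kb, the class of EPHA6, the share was 52.4%.

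Regions separated by treatment, which 1 group had in each of its lists and the other group had in none, were rare. JQ1 separated 1 EPHA region, at EPHA5 (1.75%, beside 0.377% of all regions). A JQ1-separated region was found at 0.719% of all genes and at 2.74% of those of at least 150 kb. No EPHA region was separated for the untreated group, beside 0.62% of all regions, 1.24% of all genes and 4.06% of the long genes. Counted as lines of the lists, the EPHA genes had 12 peaks in untreated replicate 1, 43 in untreated replicate 2, 12 in JQ1 replicate 1 and 56 in JQ1 replicate 2. These were 0.174%, 0.157%, 0.241% and 0.173% of each list. The log2 JQ1 over untreated count was 0.00 in replicate 1 and 0.38 in replicate 2, with a mean of 0.19 that is small beside the pooled SD of 1.44 within a group. The same difference over all peaks of the lists was −0.47, 0.24 and a mean of −0.11.

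**Figure D2:**
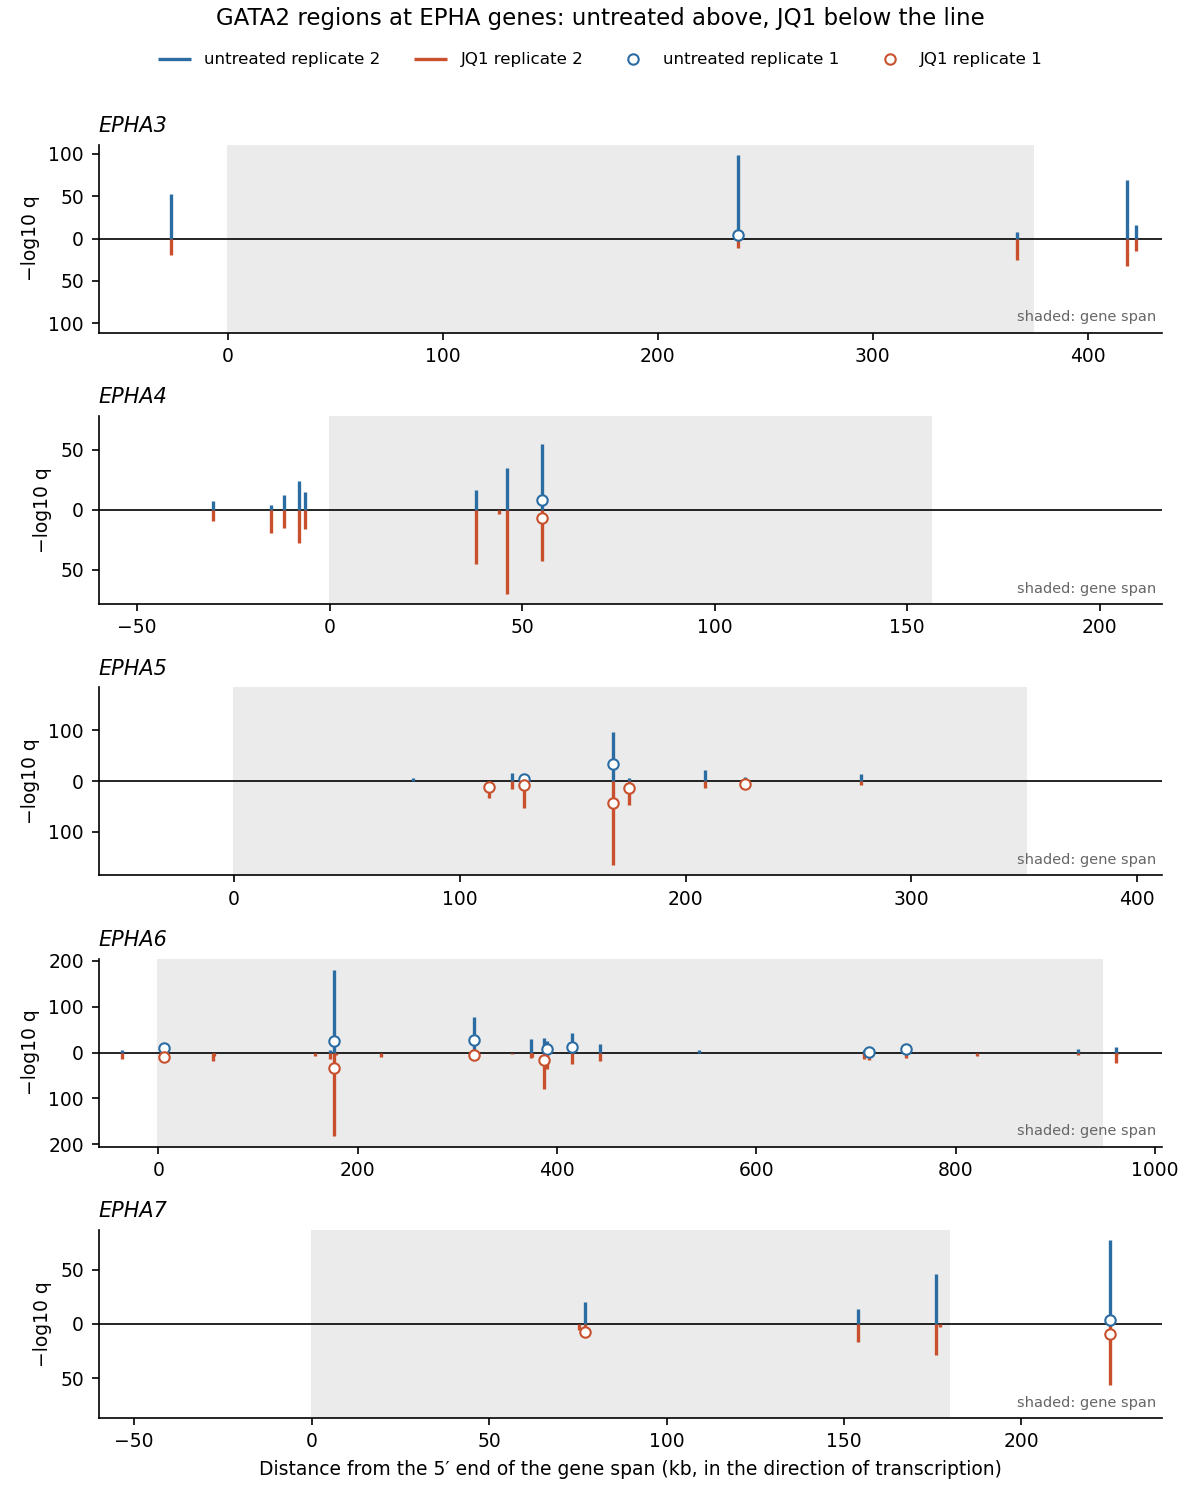
Position of the regions of EPHA3 to EPHA7, as kb from the 5′ end of the gene span (horizontal axis), with the authors' −log10 q (vertical axis, untreated upwards and JQ1 downwards from 0). Lines are replicate 2 and circles replicate 1. Regions of EPHA5, EPHA6 and EPHA7 lie mostly inside the shaded span, while 5 of the 9 EPHA4 regions lie upstream of it.

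EPHA5, a receptor studied mostly in the nervous system, had 2 regions in untreated replicate 1, 8 in untreated replicate 2, 5 in JQ1 replicate 1 and 7 in JQ1 replicate 2. In replicate 1 it thus had more regions with JQ1, although the JQ1 list was the shorter one, and in replicate 2 fewer, although the JQ1 list was the longer one. All 9 lay inside the span, which runs from 65319567 to 65670489 on the minus strand of chromosome 4. Regions are numbered here from the 5′ end of each gene. EPHA5-2, EPHA5-4, EPHA5-5 and EPHA5-6 lay within 62.1 kb of each other and were the 4 EPHA5 regions present in both JQ1 lists. EPHA5-3 lay inside the same stretch, between EPHA5-2 and EPHA5-4, and was absent from JQ1 replicate 1.

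EPHA5-5, at 65502195 to 65502687, was the strongest. It had 61 reads over the summit in untreated replicate 1, 146 in untreated replicate 2, 70 in JQ1 replicate 1 and 149 in JQ1 replicate 2. The levels were 48.7, 74.6, 62.1 and 95.4 times the genome-wide coverage in that order. The JQ1 level was thus the higher one within each replicate, with a log2 ratio of 0.57 in replicate 1 and 0.55 in replicate 2, while the 2 groups overlapped across replicates. By −log10 q the region stood in the top 3.82% of the untreated replicate 2 list and in the top 0.47% of the JQ1 replicate 2 list.

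EPHA5-4, at 65542019 to 65542379, had untreated levels of 13.6 and 13.3 and JQ1 levels of 16.9 and 37.1. Both JQ1 levels were above both untreated levels. This held for 1 of the 7 EPHA regions of all 4 lists, beside 0.896% of 3236 such regions, and the reverse held for 1 of the 7, at EPHA6, beside 6.98%. Its log2 ratio was 0.53 ± 0.48 in replicate 1 and 1.68 ± 0.34 in replicate 2 (counting SE). The replicate 2 ratio was above 99.5% of shared regions. Its −log10 q was 4.73 and 10.9 untreated, and 6.98 and 52.2 with JQ1.

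EPHA5-6, at 65495541 to 65495829, was not called in untreated replicate 1. Its level was 16.9 in untreated replicate 2, 24.9 in JQ1 replicate 1 and 46.7 in JQ1 replicate 2. The log2 ratio in replicate 2 was 1.67 ± 0.30 (counting SE), above 99.4% of shared regions.

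EPHA5-2, at 65557400 to 65557646, was the JQ1-separated region, 113 kb from the 5′ end. It had 29 reads over the summit in JQ1 replicate 1 and 57 in JQ1 replicate 2, which are levels of 25.7 and 36.5. The authors' −log10 q was 11.7 and 34.0. Neither untreated list held a peak there, and a level for an uncalled region cannot be read from a peak list. At the local background this region had in JQ1 replicate 2, 3.55 times the genome-wide coverage, the lowest level called was 11.98 in untreated replicate 1 and 11.24 in untreated replicate 2. Absence from those lists therefore does not show that the binding was 0. With every list shortened to the length of the shortest by rank, EPHA5-2 was no longer JQ1-separated, and 3 other regions were, EPHA5-4, EPHA5-6 and EPHA6-15. The share of all regions separated at that length was not counted.

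The other 5 EPHA5 regions did not follow one direction. EPHA5-3, EPHA5-7 and EPHA5-9 were in both replicate 2 lists, with log2 ratios of 0.08, 0.18 and −0.04, of which the first and second were −0.28 and −1.18 over local background. EPHA5-8 was in untreated replicate 2 with a −log10 q of 7.80 and in JQ1 replicate 1 with 6.26. EPHA5-1 was in untreated replicate 2 alone, with 6.72.

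**Figure D3:**
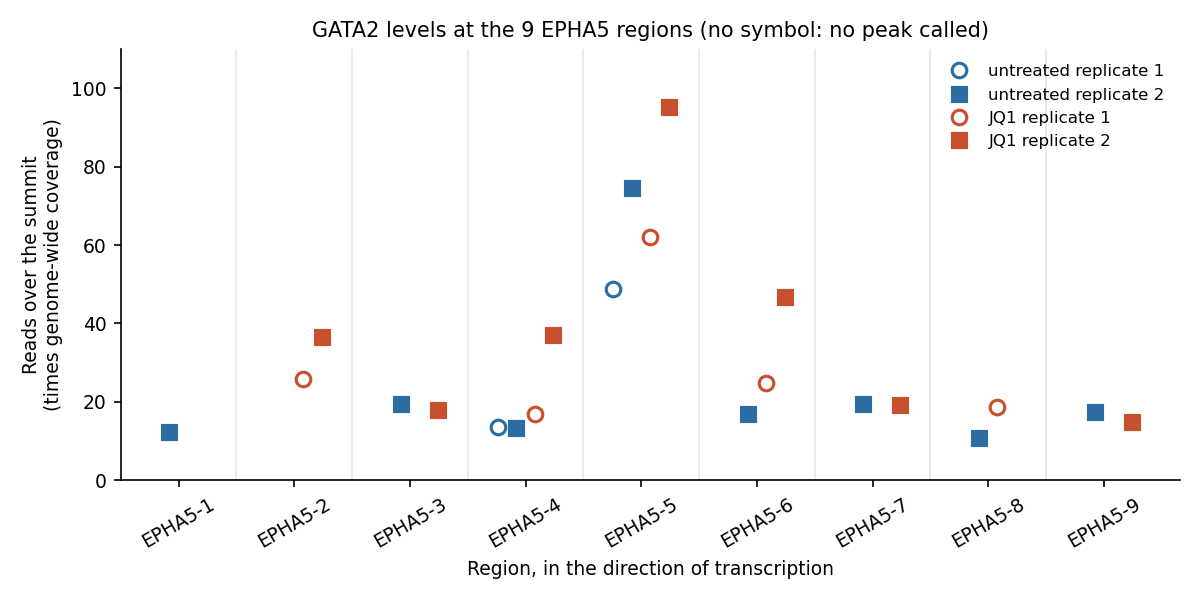
Level (reads over the summit divided by genome-wide coverage, vertical axis) of each EPHA5 region in the 4 lists, ordered from the 5′ end (horizontal axis). EPHA5-5 reaches 95.4 in JQ1 replicate 2, EPHA5-2 has points for the JQ1 lists alone at 25.7 and 36.5, and a list without a point had no peak there.

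EPHA3, a receptor studied in cell positioning, had 5 regions, all of them in both replicate 2 lists and none in JQ1 replicate 1. EPHA3-2, at 89344612 to 89345053 inside the gene, was also in untreated replicate 1. It had 12 reads over the summit there, 115 in untreated replicate 2 and 29 in JQ1 replicate 2, which are levels of 9.58, 58.8 and 18.6. The log2 ratio in replicate 2 was −1.47 ± 0.30 (counting SE), at the 0.10 percentile of shared regions and the lowest of the EPHA regions. The untreated replicate 2 value stood apart from both others, and the level in untreated replicate 1 was lower than that with JQ1.

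The other EPHA3 regions went both ways. EPHA3-1, 26.1 kb upstream, had a −log10 q of 52.4 untreated and 19.4 with JQ1 in replicate 2, with a log2 ratio of −0.64. EPHA3-4, downstream of the gene, had 68.3 and 31.9, with a ratio of −0.42. EPHA3-3 had a level of 12.3 untreated and 21.8 with JQ1, with a ratio of 1.02. EPHA3-5 had levels of 17.9 and 19.8, with a ratio of 0.35 that was −0.39 over local background. EPHA3-5 was the EPHA3 region nearest the edge of the window, 47.9 kb past the gene.

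EPHA4, a receptor that binds ephrins of both the A and B class, had its regions in 2 groups. EPHA4-1 to EPHA4-5 lay 30.4 to 6.50 kb upstream of the 5′ end and were in the replicate 2 lists alone. Their −log10 q ran from 3.88 to 24.2 untreated and from 9.46 to 27.9 with JQ1, and all 5 ratios were above 0, from 0.08 to 1.28, but over local background this held for EPHA4-2 alone, with 1.04. The largest was at EPHA4-2, where the level was 8.18 untreated and 17.3 with JQ1.

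The other 4 EPHA4 regions lay 38.1 to 55.1 kb inside the gene. EPHA4-9, at 221518739 to 221519209, was in all 4 lists with levels of 19.2 and 46.5 untreated and 15.1 and 32.6 with JQ1. The log2 ratios were −0.13 and −0.31, and 0.45 and −0.01 over local background, and the groups overlapped. EPHA4-8 and EPHA4-6 were in both replicate 2 lists with ratios of 0.62 and 0.77. EPHA4-7 was in JQ1 replicate 2 alone, with a −log10 q of 3.06.

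EPHA6, an EPHA receptor with a very long gene, had 7 regions in untreated replicate 1, 16 in untreated replicate 2, 4 in JQ1 replicate 1 and 26 in JQ1 replicate 2. Its strongest region, EPHA6-8 at 96990130 to 96990550, stood in the top 0.33% of the untreated replicate 2 list and the top 0.31% of the JQ1 replicate 2 list. Its −log10 q was 24.6 and 180.4 untreated, and 33.6 and 182.5 with JQ1. The levels were 35.9 and 89.4 untreated, and 36.4 and 105.0 with JQ1, so replicates differed far more than treatments. The log2 ratio was 0.24 in replicate 1 and 0.43 in replicate 2, and over local background 1.15 and −1.16.

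EPHA6-11, at 97131538 to 97131801, went the other way. Its levels were 31.9 and 47.5 untreated, and 20.4 and 23.7 with JQ1, so that both JQ1 levels were below both untreated levels. The log2 ratio was −0.43 ± 0.38 in replicate 1 and −0.81 ± 0.28 in replicate 2 (counting SE). EPHA6-3, 5.22 kb past the outermost start, was in all 4 lists with levels of 21.6 and 14.8 untreated, and 24.9 and 18.6 with JQ1, and with ratios of 0.42 and 0.52, or 0.14 and −1.37 over local background. These 3 regions therefore did not share a direction.

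Of the other 24 EPHA6 regions, 4 were in both untreated lists and JQ1 replicate 2 but not in JQ1 replicate 1. These were EPHA6-16, EPHA6-17, EPHA6-22 and EPHA6-23, with replicate 2 ratios of 0.55, −0.37, −0.29 and −0.06. The first of these was −0.03 and the third 1.02 over local background. EPHA6-15 was in every list but untreated replicate 1, with levels of 26.1 in untreated replicate 2, 21.3 in JQ1 replicate 1 and 55.0 in JQ1 replicate 2. Its replicate 2 ratio was 1.27, or 0.27 over local background. Another 7 were in the replicate 2 lists alone, among them EPHA6-21 with the highest ratio of any EPHA region, 1.86 ± 0.41 (counting SE), which was −0.49 over local background. JQ1 replicate 2 alone held 11, with −log10 q from 1.90 to 19.4, and untreated replicate 2 alone held 1. The region nearest a start, EPHA6-2, was one of those 11 and had the lowest −log10 q of them, 1.90. EPHA6-26 and EPHA6-27 lay inside the neighbouring gene ARL6, which takes part in ciliary transport, and were nearest to that gene.

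EPHA7, a receptor studied in brain development, had 6 regions. EPHA7-6, at 93194529 to 93194988 and 45.3 kb downstream, was in all 4 lists with levels of 10.4 and 47.0 untreated, and 23.1 and 35.2 with JQ1. The replicates went opposite ways there, with log2 ratios of 1.37 ± 0.49 in replicate 1 and −0.22 ± 0.25 in replicate 2 (counting SE). Over local background the ratios were 0.24 and −0.54. The untreated replicate 1 level rested on 13 reads. A further summit of JQ1 replicate 1 lay just outside the window, 56.8 kb from the gene, with a −log10 q of 11.3. EPHA7-2 was in every list but untreated replicate 1, with a replicate 2 ratio of −0.19. EPHA7-3 and EPHA7-4 were in both replicate 2 lists with ratios of 0.62 and 0.13, or −0.40 and −1.46 over local background, and EPHA7-1 and EPHA7-5 were in JQ1 replicate 2 alone.

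EPHA1, a receptor found mainly in epithelia, had its 1 region, EPHA1-1 at 143420510 to 143420705, in JQ1 replicate 2 alone. It lay 11.7 kb upstream with a level of 14.7 and a −log10 q of 14.1.

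Regions were merged by overlap, which keeps their summits close. In the 40 EPHA regions of 2 or more lists, the summits of the lists lay a median of 14 bp apart, and in 39 of them (97.5%) within 60 bp. Over all 21681 such regions the median was 16 bp and the share 92.8%, so the EPHA regions were near the rest. The exception was EPHA6-7, with summits 437 bp apart.

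Strength could be compared within replicate 2 at 38 EPHA regions, of which 25 were higher and 13 lower with JQ1. The median log2 ratio was 0.28, with a range from −1.47 to 1.86, beside 0 for all shared regions by construction. The JQ1 level was 2-fold or more higher at 7 of the 38 (18.4%, beside 5.3% of all shared regions) and 2-fold or more lower at 1 (2.63%, beside 1.48%). The 7 were EPHA3-3, EPHA4-2, EPHA5-4, EPHA5-6, EPHA6-15, EPHA6-21 and EPHA6-26, and the 1 was EPHA3-2. At EPHA6-26 the ratio was 1.16, or −0.43 over local background. In replicate 1 the comparison was possible at 7 regions, of which 5 were higher and 2 lower, with a median of 0.42. There 1 of the 7, EPHA7-6, was 2-fold or more higher, beside 2.69% of all, and 0 were 2-fold or more lower, beside 1.53%. Over local background the replicate 1 ratio of EPHA7-6 was 0.24. Of the 7 regions of all 4 lists, 4 were higher with JQ1 in both replicates (EPHA5-4, EPHA5-5, EPHA6-3 and EPHA6-8) and 2 were lower in both (EPHA4-9 and EPHA6-11). Of all 3236 regions of 4 lists, 782 were higher in both replicates and 1225 were lower in both. The sign was thus the same in both replicates at 85.7% of these EPHA regions, beside 62.2% of the 3236. Over local background EPHA5-4, EPHA5-5 and EPHA6-11 had the same signs in both replicates as here, and the other 3 did not. In replicate 1 the counting SE was near or above the size of the ratio at EPHA4-9 (−0.13 ± 0.46) and EPHA6-8 (0.24 ± 0.31). It was also so at EPHA6-3 (0.42 ± 0.39), EPHA5-4 (0.53 ± 0.48) and EPHA6-11 (−0.43 ± 0.38). The sign in replicate 1 is therefore weakly set by the counts there. At EPHA5-5 the replicate 1 ratio was 0.57 ± 0.25.

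**Figure D4:**
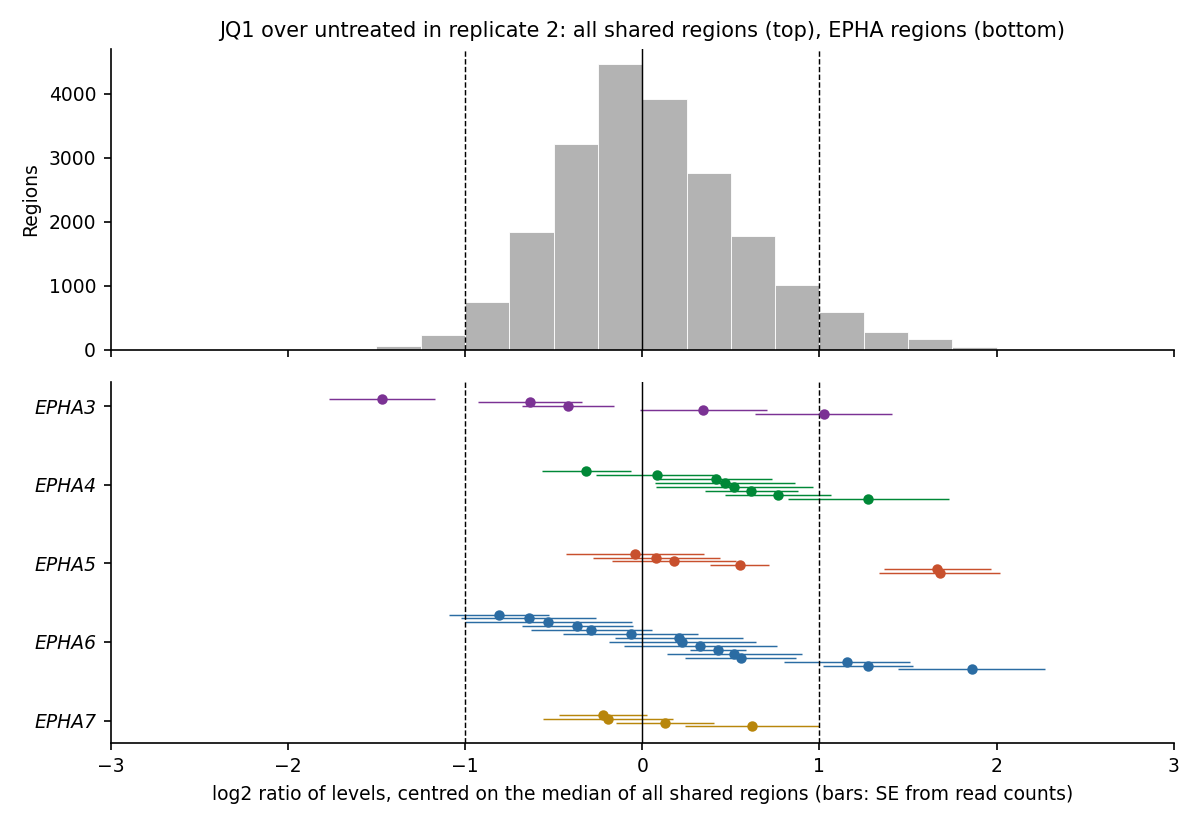
Log2 ratio of the JQ1 to the untreated level in replicate 2, relative to the median of shared regions, as a histogram of all 21173 shared regions (top) and as points for the 38 EPHA regions by gene (bottom, bars are the SE from read counts). Dashed lines mark 2-fold. EPHA regions run from −1.47 at EPHA3-2 to 1.86 at EPHA6-21, with 25 above 0.

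These directions depended on the scale. When the reads over a summit were divided by the local background in place of the genome-wide coverage, 12 of the 38 EPHA regions were higher with JQ1 and the median log2 ratio was −0.40. On that scale 7 were 2-fold or more higher (18.4%, beside 11.8% of all) and 10 were 2-fold or more lower (26.3%, beside 11.4%). The sign differed between the scales at 17 of the 38 regions (44.7%, beside 39.8% of all). Over the EPHA regions the local background was a median of 1.13 times the genome-wide coverage in untreated replicate 2 and 1.96 times in JQ1 replicate 2, beside 1.58 and 1.77 over all peaks. Its part in the ratios was not tested.

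On both scales 3 EPHA regions were 2-fold or more higher (7.89%, beside 1.62% of all), namely EPHA3-3, EPHA4-2 and EPHA5-6. Just 1 was 2-fold or more lower (2.63%, beside 0.567%), namely EPHA3-2. EPHA3-3 and EPHA4-2 were near the limit, with 1.02 ± 0.38 and 1.28 ± 0.46 (counting SE) by level and 1.08 and 1.04 over local background. Without centring, the ratio of levels at EPHA3-3 was 0.83, below 2-fold. EPHA5-5 was higher with JQ1 on both scales in both replicates, with log2 ratios over local background of 0.34 and 0.67, and so was EPHA5-4, with 0.47 and 0.89. EPHA6-11 was lower on both scales in both replicates, with −1.43 in replicate 1 and −2.66 in replicate 2.

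**Figure D5:**
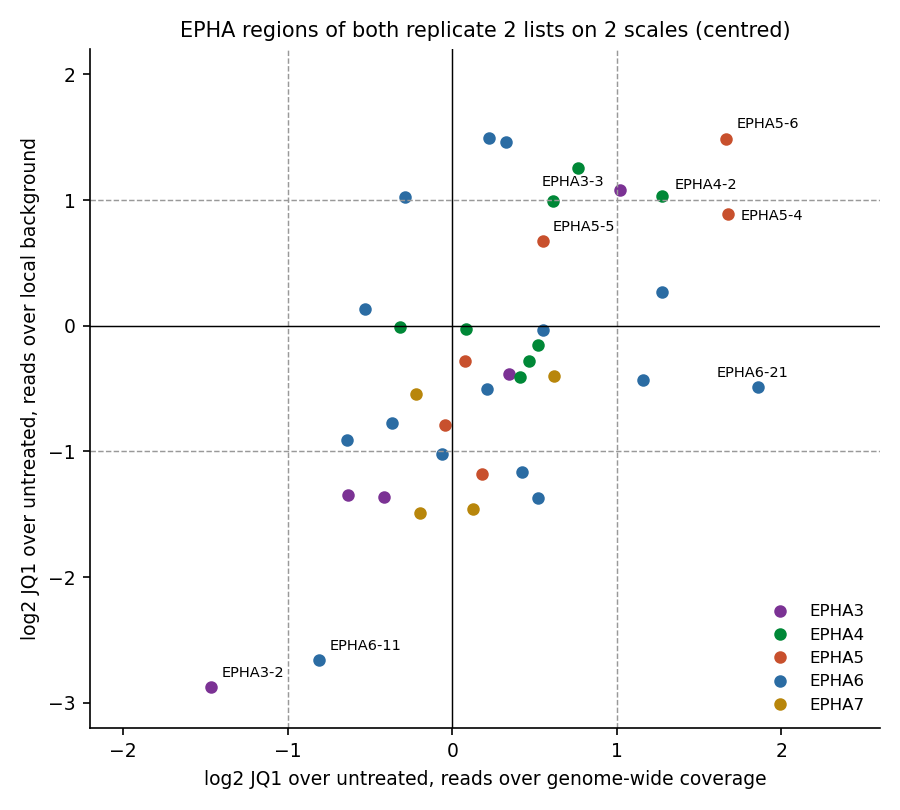
Log2 JQ1 over untreated ratio in replicate 2 by genome-wide coverage (horizontal axis) against the ratio by local background (vertical axis), each relative to the median of all shared regions, with 1 point per EPHA region. EPHA3-2 lies far below 0 on both axes at −1.47 and −2.88, and 17 of the 38 points lie in quadrants where the signs differ.

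The ligands and other receptors of the system were listed in the same way. Of the 15 other Eph receptors and ephrins, 10 had a region within 50 kb, beside 62.6% of all genes, 3 had a region of all 4 lists, beside 13.6%, and 0 had a separated region. These counts are near those shares. The 3 were EFNA5, a ligand of EPHA receptors, EFNB2, a transmembrane ephrin, and EPHB6, a receptor without kinase activity. The median span of the 15 genes was 20.6 kb, far shorter than that of the genes with most EPHA regions. EPHB6, with a span of 16.0 kb, had 12 regions within 50 kb, and 3 of these were in all 4 lists. Of the 3, 1 lay inside the span and the others lay 27.0 and 24.3 kb outside it. The remaining A-class receptors had few, with 1 region at EPHA8, in JQ1 replicate 2 alone, and 0 at EPHA10. Among the 10 genes with a region, ephrin-A genes close together on chromosome 1 have overlapping windows. Each of these had 1 region, in untreated replicate 2 alone, so a single region may be counted for more than 1 gene.

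Of 24 signalling partners of Eph receptors, 19 had a region, beside 62.6% of all genes and 94.4% of those of at least 150 kb, and 5 had one in all 4 lists. All 5 were among the 12 partners of at least 150 kb, and 37.2% of all genes of that length had such a region, so this count is near the background. They were ARHGEF12, FYN, a Src-family kinase, ITSN1, a scaffold, PDZD2, a PDZ-domain protein, and TIAM1, a Rac exchange factor. CHN1, the Rac GTPase-activating protein that acts downstream of EPHA4, had 1 JQ1-separated region, with a −log10 q of 10.4 and 17.1, and was the 1 partner with one, beside 0.719% of all genes and 2.74% of the long ones. TIAM1 was the 1 partner with an untreated-separated region, with 8.23 and 16.5, beside 1.24% of all genes and 4.06% of the long ones. Both genes exceed 150 kb.

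The EPHA genes with most regions were not alone in their pattern of peak numbers. EPHA4 had 1, 9, 1 and 9 peaks in untreated replicates 1 and 2 and JQ1 replicates 1 and 2, and TAOK3 had the same 4 numbers. After TAOK3, 10 genes differed from EPHA4 by 1 peak in all, of which SLMAP was nearest in length. EPHA6 had 7, 17, 4 and 28 peaks, and the nearest genes were AGBL4, with 7, 19, 6 and 28, and then ANK3, with 6, 18, 4 and 24, which was nearest in length of 2 genes at the same difference. EPHA5 had 2, 8, 5 and 7 peaks, and the nearest was HCRTR2, with 3, 8, 4 and 7, followed by 7 genes at the same difference, of which PDE8B, with 2, 9, 3 and 7, was nearest in length. Likeness is the sum of absolute differences over the 4 lists, and genes sharing a peak with the member were left out.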

How the data were processed

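GATA2 ChIP-seq peaks of 4 precipitates were used. Per the submitters' processing notes the tools were Bowtie2, Picard and MACS2 on hg38, with versions not given in the sources used here. The lists were called per sample. The deposited score is the peak caller's whole number and was not used. The deposited fold is a linear ratio at the summit, and the deposited −log10 p-value and −log10 q-value are those of the authors' caller. The weakest q in each list is just under 0.05. Reads over summits were recovered on the assumption that the fold is pileup over background, each plus 1, and p a Poisson tail (tolerance 0.001 in −log10 p). The pileup of untreated replicate 2 fitted whole reads multiplied by 0.686. Its pileup and background were divided by this factor, so that the reads given are whole reads.

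Left out were 10 mitochondrial lines of JQ1 replicate 1 and 8 contig lines of untreated replicate 2. Peaks overlapping by 1 bp were merged. Genes were matched by RefSeq GRCh38.p14 spans. The members, gene lists and naming rule (every member, every listed gene with a region of all 4 lists or a separated region, and the 2 genes most like each of the 3 members with most regions) were chosen with earlier results of these data known. EPHA5-8, EPHA6-7 and other single regions were named after their values were seen. Ratio errors cover counting only. Scripts used Python 3.11.15, pandas 2.3.3, numpy 2.4.6 and scipy 1.17.1 and were tested on simulated data.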

Additional observations from a re-analysis of the deposited data

How the results depend on the processing

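Of 43 alternatives over the EPHA counts, 31 gave about the same value and 12 moved. The moves came with equal-length lists, with a replicate left out and at the count of 2-fold lower regions. The log2 peak count ratio could hardly move, because its limit was the wide pooled SD. The 31 are therefore no measure of stability. With all lists cut to the length of the shortest, 21 EPHA regions were left, 3 were in all lists, 3 were JQ1-separated (EPHA5-4, EPHA5-6 and EPHA6-15) and 1 was untreated-separated (EPHA6-17), and EPHA5-2 was no longer separated. Leaving out replicate 1 or replicate 2 of both groups gave 17 to 58 regions, 7 to 39 in all remaining lists, 5 to 16 JQ1-separated and 3 to 5 untreated-separated, and the log2 peak count ratio ran from 0.00 to 0.38. That ratio was 0.50 with a q of at most 1e-05, a move counted as about the same because it is under the pooled SD of 1.44. With a replicate left out, a separated region needs 1 list a group. The shares of all regions with cut lists or a replicate left out were not counted. The full-list shares are no base for these counts. Regions 2-fold lower with JQ1 in replicate 2 numbered 2 without centring and 10 over local background. Regions 2-fold higher numbered 5 without centring and 7 over local background. Both settings were chosen after seeing the data. With the replicate number as a block, the log2 ratio of EPHA peak counts was 0.19, which the balanced design fixes to the unblocked value. The labels do not say that a number pairs samples, and 2 numbers are too few to check it. EPHA5-2 was the 1 JQ1-separated region with windows of 10 and 100 kb, with a q of at most 1e-05, with a 50% reciprocal overlap and with summits within 100 bp. A region missing from a list can lie under its threshold, and the part of depth in the short replicate 1 lists was not tested.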
